A study of Mus musculus with 6 samples.

Results

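The disease-associated microglia genes described here are the 10 genes Trem2, Tyrobp, Apoe, Cst7, Lpl, Itgax, Clec7a, Spp1, Axl and Gpnmb, taken by symbol out of 56748 genes in a table of mouse brain RNA. The brains came from mice of an intraductal model, implanted with MCF10DCIS, a human cell line used to model ductal carcinoma in situ, an early lesion of the mammary duct. These cells expressed a fusion of CD63, a tetraspanin of vesicle membranes, with the luciferase NanoLuc. Brain tissue was taken 28 days after implantation (3 libraries) or 3 days after implantation (3 libraries), so both groups carried the cells, and no unimplanted mouse was analysed here. The labels give no strain, age or sex of the mice and do not state whether each library is a different animal. The p-values therefore reflect only the scatter among these 6 samples, and that scatter may be technical. The contrast in the labels is late against early brain tissue after implantation.

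Microglia are the resident macrophages of the brain. In mouse models of neurodegeneration, demyelination and ageing, a subset of them lowers genes of the resting state and raises a program of phagocytosis, lipid handling and lysosomal genes, called the disease-associated state. TREM2 is the surface receptor on which full entry into this state depends, and TYROBP, also called DAP12, is the adaptor that carries its signal. The other genes encode lipid carriers and enzymes (Apoe, Lpl), surface receptors (Itgax, Clec7a, Axl), a secreted matrix protein (Spp1), a cathepsin inhibitor (Cst7) and a transmembrane glycoprotein (Gpnmb). In bulk tissue, fewer cells of a type and less RNA per cell cannot be told apart, and several of these genes are also made outside microglia: Apoe in astrocytes and liver, Spp1 in some brainstem neurons, Lpl in neurons, Axl in vascular cells.

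None of the genes that were high enough to test passed between 28 and 3 days, which does not show that they were unchanged. A gene was tested if its mean normalized count, a read count divided by a depth factor of its library, was at least 10 over the 6 libraries. Of the 10 genes, 8 were tested and Cst7 and Clec7a were too low. With limma, 0 of the 8 had an adjusted p of at most 0.05 over all genes tested (the background was 0.192% of 16162 genes, with 0.0681% higher and 0.124% lower at 28 days), and 1 of the 8, Lpl, had an unadjusted p under 0.05 (the background was 13.4%). The count was also 0 with voom on recovered reads, where 1 of the 8 had an unadjusted p under 0.05. Day 3 replicate 1 held the highest value of 7 of the 10 genes, namely Tyrobp, Cst7, Itgax, Clec7a, Spp1, Axl and Gpnmb, while 20.5% of all tested genes had their highest value there.

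**Figure D1:**
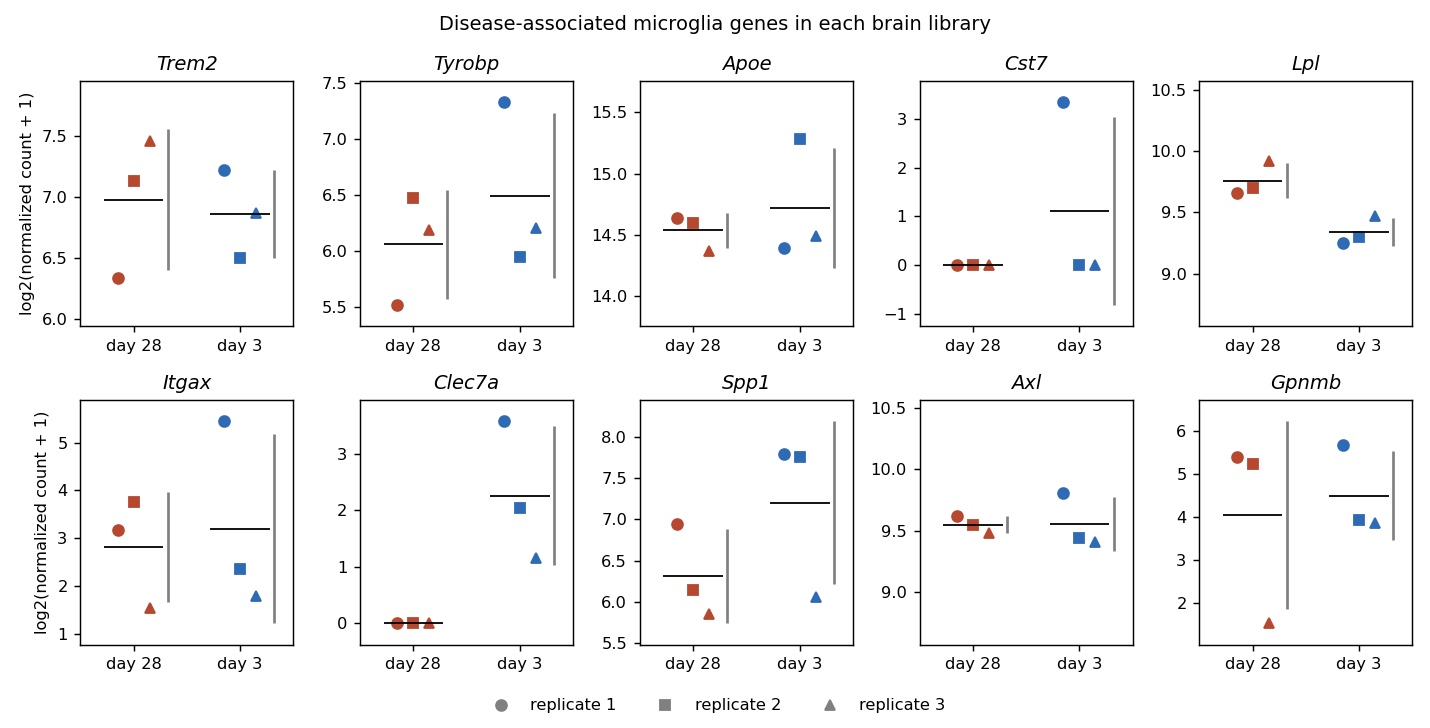
Log2(normalized count + 1) of the 10 genes in each library, with day 28 left of day 3 in every panel. Points are libraries, horizontal lines are group means and grey bars are the mean ± 1 SD of 3 libraries. Lpl lay higher in all 3 day 28 libraries, Clec7a was at 0 in them, and day 3 replicate 1 stood highest for 7 genes.

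Recovered depth ran from 11958137 to 16059196 reads per library. Libraries differed in ways that cross the groups and touch the results below. Day 3 replicates 1 and 2 were rich in cerebellar transcripts, with summed normalized counts of 10 cerebellar neuron genes of 19651 and 18203 against 1544 to 3849 in the other libraries. Day 3 replicate 2 held 101714 normalized counts of 10 liver-made transcripts, against 36.6 to 1855 in the other 5. Day 3 replicate 1 held 2818 normalized counts of 12 interferon-stimulated genes, against 223 to 460 elsewhere. Over all genes, 31 passed the test, 11 higher and 20 lower at 28 days (29 higher and 19 lower when libraries were scaled to equal upper quartiles). That count was 1 without day 28 replicate 1, 2 without day 28 replicate 2, day 28 replicate 3 or day 3 replicate 2, and 623 without day 3 replicate 3.

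Clec7a, Itgax and Cst7 were the genes read mainly in a single library, and the 250 bases before their transcription starts are shown because they were highest together in day 3 replicate 1. The sequences are from RefSeq on GRCm38.p6, an older build than the GRCm39 named in the submitters' processing notes. They lie at chr6:129472780-129473029 (minus strand), chr7:128129300-128129549 (plus strand) and chr2:150570165-150570414 (plus strand), and capitals mark GAGGAA, the core of sites bound by PU.1, the transcription factor that specifies myeloid cells.
Clec7a: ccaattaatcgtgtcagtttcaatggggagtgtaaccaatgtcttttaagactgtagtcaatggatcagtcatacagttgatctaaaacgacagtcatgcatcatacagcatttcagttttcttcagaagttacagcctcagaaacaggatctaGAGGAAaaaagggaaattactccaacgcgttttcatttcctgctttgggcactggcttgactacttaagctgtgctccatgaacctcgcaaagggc
Itgax: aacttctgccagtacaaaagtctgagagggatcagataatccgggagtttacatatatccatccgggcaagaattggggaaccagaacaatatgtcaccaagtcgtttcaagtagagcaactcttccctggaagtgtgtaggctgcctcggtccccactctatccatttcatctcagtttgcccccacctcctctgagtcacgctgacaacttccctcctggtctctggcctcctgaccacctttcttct
Cst7: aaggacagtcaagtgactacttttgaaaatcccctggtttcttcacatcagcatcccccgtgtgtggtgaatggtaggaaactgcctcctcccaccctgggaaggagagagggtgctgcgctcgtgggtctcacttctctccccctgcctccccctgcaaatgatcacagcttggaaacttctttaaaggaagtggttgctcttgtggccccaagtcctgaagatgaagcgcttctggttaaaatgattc
The motif stood once in the Clec7a window and in neither of the other two. Of the 10 genes, 8 had a promoter in the table, all but Tyrobp and Lpl. GAGGAA was found on one or the other strand before any listed start in 5 of these 8 (Trem2, Apoe, Clec7a, Spp1 and Axl), while 25.9% of 27025 genes in the table had it. TGANTCA, a site of AP-1 factors that reads the same on both strands, was found before Trem2 and Itgax, 2 of 8, against 7.82% of all genes. CACGTG, a site of the MITF and TFE lysosomal factors that also reads the same on both strands, was found in 0 of 8 and in 6.86% of all genes. These are letter matches in a short window and say nothing about binding.

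Trem2, the receptor, did not pass the test. Its normalized counts were 79.9, 139 and 175 in the day 28 libraries, and 148, 89.5 and 116 in the day 3 libraries. The lowest and the highest value both came from day 28, and the groups overlapped. The log2 difference of day 28 minus day 3 was 0.11 on the log2(normalized count + 1) scale used throughout, which understates changes of low genes (95% interval -0.61 to 0.84, limma adjusted p = 0.91). The Trem2 difference changed sign when 1 library was left out, to -0.13 without day 28 replicate 3 and -0.07 without day 3 replicate 2. Tonsl, Cdh7 and Myo1d had deviations from their own means over the 6 libraries closest to those of Trem2, with root mean square differences of 0.147, 0.159 and 0.180 on the log2 scale, where the median over 11111 genes was 0.44.

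Tyrobp, the adaptor, had 44.9, 87.5 and 72.0 normalized counts at day 28, against 159, 60.7 and 73.0 at day 3. Only day 3 replicate 1 stood above the other 5 libraries, which lay together. The log2 difference was -0.43 (95% interval -1.35 to 0.48, limma adjusted p = 0.689), and it was -0.02 without day 3 replicate 1. Trem2 did not share this excess, since its value there, 148, was below the 175 of day 28 replicate 3. Gpr101, Mir6236 and Lars2 came closest to Tyrobp in their deviations, at 0.234, 0.256 and 0.262 against a median of 0.58. Of the downstream partners, Syk, the kinase recruited by TYROBP, averaged 58.2 ± 26.4 normalized counts at day 28 and 56.9 ± 29.0 at day 3 (SD, n = 3 each). In a list of 15 genes of TREM2 and Dectin-1 signalling, 14 were tested and 0 passed in either direction, with a median log2 difference of 0.02 against -0.01 over all tested genes. Of the 14, 10 were highest in day 3 replicate 1, among them Plcg2, the phospholipase that relays the TREM2 signal, with 123 normalized counts there and 44.9 to 80.3 in the other libraries.

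Clec7a encodes Dectin-1, a receptor for fungal glucans that is scarce in resting microglia. It had 0 reads in all 3 day 28 libraries, against 12, 3 and 1 reads in day 3 replicates 1 to 3. The groups therefore did not overlap, but the highest day 3 value rested on 12 reads. A floor of 3 reads was set over the day 28 group, which covers counting error at day 28 only and takes the day 3 reads as exact. On that footing Clec7a was at least 5.87-fold lower at day 28, or at least 2.36-fold lower without day 3 replicate 1, where 4 reads remained at day 3. The exact two-sided permutation test gave p = 0.1, the smallest p that 3 against 3 libraries allow. When no gene was filtered out, limma gave Clec7a an unadjusted p of 0.00936 and an adjusted p of 0.283. Card9, the adaptor that carries the Dectin-1 signal with Syk, averaged 31.1 ± 5.56 normalized counts at day 28 and 32.7 ± 16.1 at day 3.

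Cst7 encodes cystatin F, an inhibitor of cysteine cathepsins and one of the genes raised most sharply in the disease-associated state. It had 0 reads in every day 28 library, against 10 reads in day 3 replicate 1 and 0 in day 3 replicates 2 and 3. All of its reads thus came from 1 library. With the same floor it was at least 3.67-fold lower at day 28 (at least 5.53-fold without day 3 replicate 2), without day 3 replicate 1 both groups were at 0, and the exact permutation test gave p = 1. Ctsc, cathepsin C, a protease that cystatin F inhibits, had 124, 116 and 83.4 normalized counts at day 28, against 475, 161 and 128 at day 3. Its groups did not overlap, as in 9.21% of tested genes in the lower direction, but it did not pass (limma adjusted p = 0.37).

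Itgax, the integrin alpha chain CD11c of dendritic cells and activated microglia, had 8, 14 and 2 reads at day 28, against 47, 4 and 2 reads at day 3. Day 3 replicate 1 stood above the rest, and the remaining values overlapped. The log2 difference was -0.38 with a wide 95% interval, -2.95 to 2.19 (limma adjusted p = 0.919), and it turned to 0.75 without day 3 replicate 1 and to 0.26 without day 28 replicate 3. Itgb2, the beta chain that pairs with it, was also highest in day 3 replicate 1, with 46.9, 52.7 and 23.7 normalized counts at day 28, against 223, 50.4 and 36.5 at day 3. It did not pass either (log2 difference -0.92, limma adjusted p = 0.574). The genes with deviations closest to those of Itgax were Irf1, Mpeg1 and Tap2 (root mean square differences of 0.655, 0.738 and 0.774, against a median of 1.36 over 11111 genes). Irf1, an interferon-responsive transcription factor, had 400.3 normalized counts in day 3 replicate 1 and 37.9 to 53.9 in the other 5 libraries.

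The library in which these genes were highest also held more RNA of other immune genes. The 12 general microglia and macrophage genes, among them Aif1, Itgam, Ptprc and the C1q chains, were all highest in day 3 replicate 1, with a summed level of 7955 normalized counts there, against 2734 to 2951 at day 28 and 3200 to 3318 in the other day 3 libraries. Cd74, the invariant chain of class II antigen presentation, had 3984 normalized counts in that library and 22.7 to 54.5 in the other 5. Markers of border macrophages, 8 genes including Mrc1 and Lyve1, summed to 423 normalized counts there, against 157 to 221 at day 28 and 247 to 257 in the other day 3 libraries. All 4 of these markers high enough to test (Mrc1, Cd163, F13a1 and Stab1) were highest in day 3 replicate 1, and Stab1 alone gave 278 of the 423. The markers too low to test peaked elsewhere, Lyve1 and Cbr2 in day 3 replicate 3, Pf4 and Ms4a7 in day 28 replicate 1. Monocyte and neutrophil markers, 8 genes, summed to 101 normalized counts in day 3 replicate 1 and 80.2 in replicate 2, against 8.04 to 14.2 at day 28. Plac8, Ly6c2 and Ccr2 gave 50, 39 and 14 reads in day 3 replicate 1, against at most 6 reads in any day 28 library. S100a8, S100a9 and Ngp, made by neutrophils, were highest in day 3 replicate 2, and Ly6g was at 0 in every library. Dendritic cell markers, 6 genes, summed to 566 normalized counts in day 3 replicate 1, 443 in replicate 2 and 254 in replicate 3, against 218 to 300 at day 28. Flt3 and Zbtb46, the members of that list high enough to test, were highest in day 3 replicate 1. They made up most of these sums, with 264 and 292 normalized counts in that library and 199 and 232 in day 3 replicate 2. The sums therefore say little about the other markers of the list. The part of these cells, or of the interferon-stimulated genes, in the values of Clec7a, Cst7, Itgax and Tyrobp was not tested.

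Homeostatic microglia genes did not share this excess. All 12, among them P2ry12, Tmem119, Cx3cr1 and Csf1r, had reads in every library, so microglial transcripts were present in all 6. Their summed level was 6402 normalized counts in day 3 replicate 1, against 5096 to 6063 at day 28 and 4690 to 5788 in the other day 3 libraries. None of the 12 passed in either direction, with 7 positive and 5 negative differences and a median log2 difference of 0.10. P2ry12, the purinergic receptor of resting microglia, averaged 649 ± 73.2 normalized counts at day 28 and 432 ± 82.5 at day 3 (log2 difference 0.60, limma adjusted p = 0.165). The groups did not overlap for P2ry12, nor for Sall1, a transcription factor of microglial identity (log2 difference 0.89, limma adjusted p = 0.148), whereas Tmem119 lay lower in all 3 day 28 libraries (log2 difference -0.38, limma adjusted p = 0.375). Over all tested genes, 9.71% were separated in the higher and 9.21% in the lower direction. The 12 general microglia and macrophage genes had 11 negative differences and a median of -0.65, which was -0.23 without day 3 replicate 1. Of the 12, 6 lay lower in every day 28 library, and 6 had a limma unadjusted p under 0.05 (13.4% of all tested genes). None of the 12 passed, and Fcer1g, another adaptor with an activation motif, came nearest (28.0 ± 3.17 normalized counts at day 28 and 78.3 ± 22.4 at day 3, log2 difference -1.42, limma adjusted p = 0.118).

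**Figure D2:**
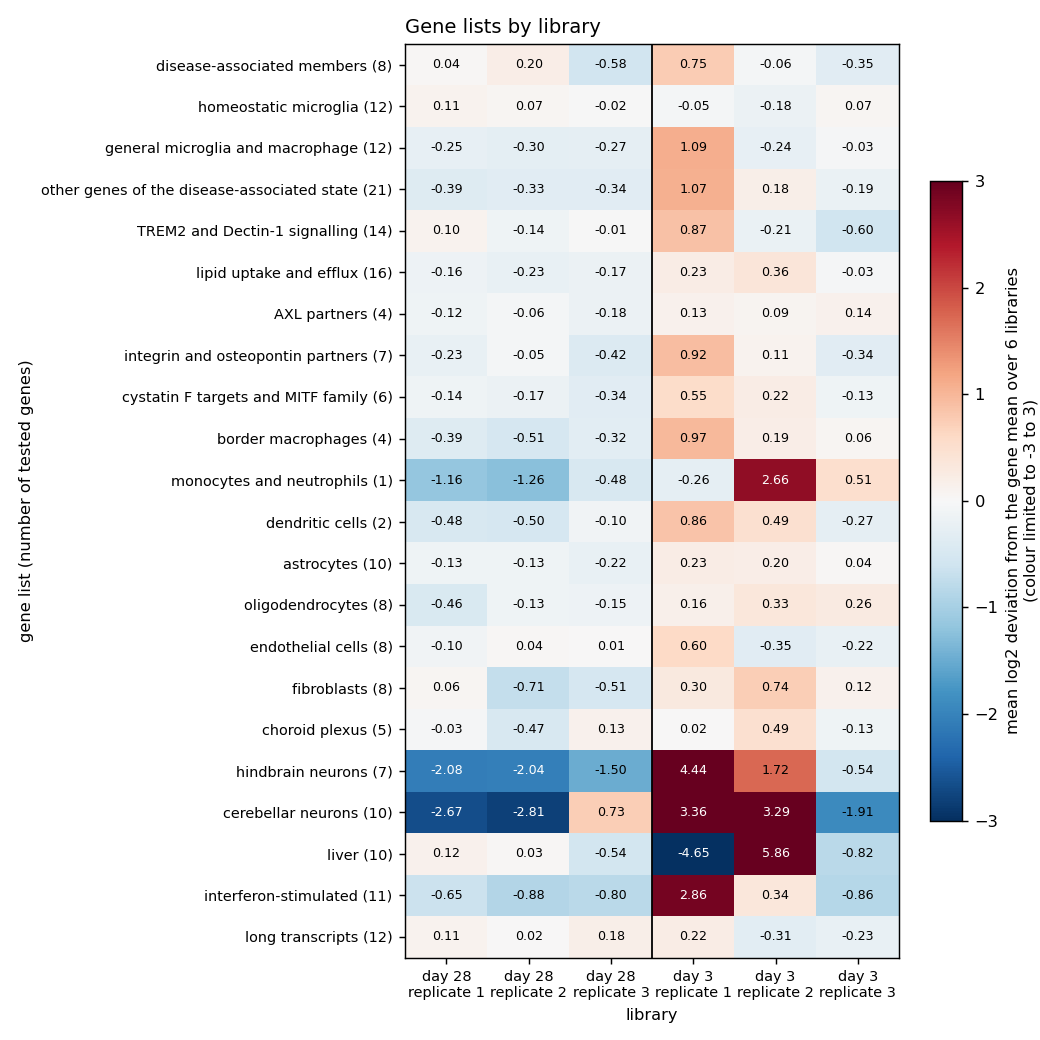
Mean log2 deviation of each gene list from the gene means over the 6 libraries, with lists as rows (number of tested genes in brackets) and libraries as columns, day 28 on the left. The mean of the 8 tested disease-associated genes was highest in day 3 replicate 1 (0.75) and lowest in day 28 replicate 3 (-0.58). The mean of the homeostatic genes stayed between -0.18 and 0.11. In day 28 replicate 3, Itgax and Gpnmb had 2 reads each, while Trem2 and Lpl were at their highest. Itgax reached the filter only through day 3 replicate 1, so the mean does not describe each of the 8 genes.

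Apoe, the apolipoprotein that astrocytes and activated microglia load with lipid, held 90.9% to 95.9% of all reads of the 10 genes in a library. It had 25532, 24820 and 21142 normalized counts at day 28, against 21488, 39830 and 22965 at day 3. Day 3 replicate 2 stood far above the other 5, which overlapped. The log2 difference was -0.18 (95% interval -0.67 to 0.31, limma adjusted p = 0.758), and it was 0.10 without day 3 replicate 2. That library also held 67650 normalized counts of Alb, which encodes albumin and is made in liver, where the other 5 libraries held 21.1 to 1139, and the hepatocyte is a main source of Apoe outside the brain. The part of liver RNA in the Apoe value was not tested. The 3 genes whose deviations over the 6 libraries came closest to those of Apoe were Etfa, Scp2 and Alad, with root mean square differences of 0.060, 0.062 and 0.082 on the log2 scale, where the median over 11111 genes was 0.35. Of 10 astrocyte markers, 4 (Aldh1l1, Slc1a3, Aldoc and S100b) were also highest in day 3 replicate 2. The mean deviation of the list was 0.23 in day 3 replicate 1, where Apoe had 21488 normalized counts, and 0.20 in day 3 replicate 2. Aldh1l1 had 2176 normalized counts there and 803 to 1283 in the other 5 libraries, while Slc1a2 was lowest there. The part of astrocyte RNA in the Apoe value was not tested.

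Among partners of Apoe, Lrp1, a receptor that takes it up, averaged 7571 ± 311 normalized counts at day 28 and 7062 ± 1528 at day 3, and Abca1, the transporter that loads it with lipid, averaged 838 ± 143 and 774 ± 114. Neither passed (limma adjusted p = 0.756 for Lrp1 and 0.808 for Abca1). In a list of 18 genes of lipid uptake and efflux, 16 were tested and 0 passed in either direction, with a median log2 difference of -0.09. Lipa, the lysosomal lipase, was the one of smallest p (237 ± 26.9 normalized counts at day 28 and 348 ± 29.9 at day 3, log2 difference -0.56, limma adjusted p = 0.159).

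Lpl, lipoprotein lipase, was the only one of the 8 tested genes with separated groups. It had 808, 831 and 969 normalized counts at day 28, against 606, 629 and 706 at day 3. Every day 28 library thus lay above every day 3 library, as for 9.71% of all tested genes (18.9% were separated in one direction or the other). The log2 difference was 0.42 (SE 0.11, 95% interval 0.16 to 0.68), with an unadjusted p of 0.00503 and a limma adjusted p of 0.165, so Lpl did not pass. With single libraries left out, the Lpl difference ran from 0.34 to 0.49, with limma adjusted p-values of 0.0728 to 0.46 over these fits. Long transcripts, 12 genes used as a sign of RNA integrity, also had 12 of 12 positive differences, with a median of 0.17 (0.37 without day 3 replicate 1), and 0 of them passed. Their mean deviations were 0.11, 0.02 and 0.18 in the day 28 libraries, against 0.22, -0.31 and -0.23 in the day 3 libraries. The part of RNA integrity in the Lpl value was not tested. Lmf1, which folds the lipase, averaged 195 ± 35.7 normalized counts at day 28 and 209 ± 32.2 at day 3. Gpihbp1, which anchors the enzyme on capillaries, had 0 to 2.68 normalized counts per library, too low to test.

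Spp1, osteopontin, was the tested gene with the largest difference in size, and it followed 2 libraries of day 3. It had 123, 69.6 and 56.9 normalized counts at day 28, against 220, 216 and 65.7 at day 3. Day 3 replicates 1 and 2 stood above the other 4 libraries, and day 3 replicate 3 lay within the day 28 range. The log2 difference was -0.89 (95% interval -1.98 to 0.21, limma adjusted p = 0.465). Without day 3 replicate 3 it was -1.46 (limma adjusted p = 0.0542), and without day 3 replicates 1 and 2 it was 0.26. Both high libraries were the ones rich in cerebellar transcripts, and they held the most hindbrain transcripts too. The 10 hindbrain neuron genes summed to 1729 and 735 normalized counts in them and 134 in day 3 replicate 3, against at most 32.2 in any day 28 library. With the cerebellar level as a covariate the Spp1 difference was -0.35 (limma adjusted p = 0.898). The mean deviation of the cerebellar genes was 3.36 and 3.29 in these day 3 libraries, against -2.81 to 0.73 in the others. Both high libraries are from day 3, so the fit cannot tell brain region from day. Fibroblast markers, whose cells can also make osteopontin, summed to 1312 and 1956 normalized counts in day 3 replicates 1 and 2 and 1286 in replicate 3, against 871 to 1283 at day 28. The part of hindbrain or fibroblast RNA in the Spp1 value was not tested. The genes closest to Spp1 in their deviations were Pde5a, Il6ra and Zfp521, at 0.186, 0.219 and 0.253 against a median of 0.82. Cd44, a receptor for osteopontin, had 33.9, 40.2 and 40.8 normalized counts at day 28, against 129, 56.6 and 65.7 at day 3, and did not pass (log2 difference -1.02, limma adjusted p = 0.259). Itgav, an integrin chain that binds osteopontin, lay higher in all day 28 libraries and did not pass either (log2 difference 0.41, limma adjusted p = 0.207).

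Axl, a receptor tyrosine kinase that clears dying cells, was the most even of the 10 genes. It had 786, 751 and 711 normalized counts at day 28, against 899, 693 and 682 at day 3. The groups overlapped, and the highest library held 1.32 times the level of the lowest. Its log2 difference was -0.01, and the 95% interval of -0.30 to 0.28 is the narrowest after that of Lpl (limma adjusted p = 0.99). Its sign turned without day 3 replicate 1 (0.12) and without day 28 replicate 3 (0.03). The Axl ligands Gas6 and Pros1 had log2 differences of -0.21 and -0.53 and did not pass (limma adjusted p = 0.384 and 0.314). Of its kin, Mertk lay lower in every day 28 library (471 ± 37.1 normalized counts at day 28 and 659 ± 34.3 at day 3, log2 difference -0.48, limma adjusted p = 0.125) and Tyro3 higher (log2 difference 0.27, limma adjusted p = 0.272). None of these 4 partners passed. Dip2b, Zgpat and Cpsf1 came closest to Axl in their deviations, at 0.028, 0.030 and 0.031 against a median of 0.23.

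Gpnmb, a transmembrane glycoprotein of lipid-laden macrophages, varied widely within both groups. It had 40.9, 36.6 and 1.90 normalized counts at day 28, against 50.4, 14.4 and 13.4 at day 3. Day 28 replicate 3 was far below the rest with 2 reads. That library also had the lowest values of Spp1, Apoe and Itgax, though Itgax had 2 reads in day 3 replicate 3 too. Trem2 and Lpl were highest in it. The group means of Gpnmb were nearly equal, 26.5 ± 21.4 at day 28 and 26.1 ± 21.1 at day 3, while the log2 difference was -0.44 (95% interval -2.79 to 1.91, limma adjusted p = 0.893). Leaving out day 28 replicate 3 gave 0.82, and leaving out day 3 replicate 1 gave 0.16. Mitf, a transcription factor that drives Gpnmb in pigment cells and macrophages, averaged 162 ± 4.00 normalized counts at day 28 and 169 ± 38.5 at day 3 (limma adjusted p = 0.956). The nearest genes in their deviations were Eomes, Gsap and Lnx2, but at 0.967, 0.995 and 1.044 they were not close, with a median of 1.43.

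**Figure D3:**
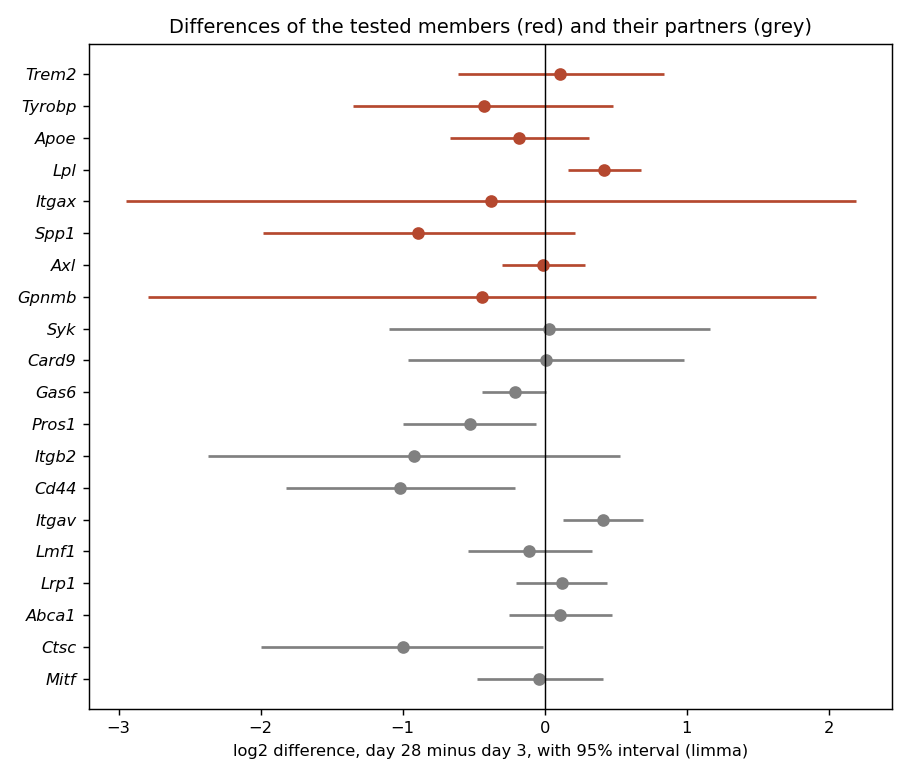
Log2 difference of day 28 minus day 3 with its 95% interval from limma, for the 8 tested members (red) and 12 tested partners (grey). Among the members the interval lay clear of 0 for Lpl only, and Itgax and Gpnmb had the widest.

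Among themselves the 10 genes spanned a wide range of levels. Per kilobase of exon in GENCODE M21, the mean over the 6 libraries was 12144 normalized counts for Apoe, then 150 for Axl, 124 for Tyrobp, 75.9 for Spp1, 72.4 for Lpl and 25.2 for Trem2. Gpnmb (4.03), Itgax (2.50), Cst7 (1.55) and Clec7a (0.966) came last on the same scale. The ranges over libraries of Axl and Tyrobp, of Tyrobp and Spp1, of Tyrobp and Lpl, of Spp1 and Lpl, of Spp1 and Trem2, and of all of the last 4 genes overlapped, so their order is not settled. On these lengths, Apoe lay above all others, and Trem2 lay below Lpl and above the last 4, in every library. The lengths merge the exons of every annotated isoform, with 667 bases for Tyrobp, 4946 for Trem2 and 10478 for Lpl. The order therefore depends on the annotation too. Of the 8 tested genes, 6 had a negative and 2 a positive difference, with 51.4% negative and 48.6% positive over all tested genes, and the median was -0.28 against -0.01 over all. Counted with Cst7 and Clec7a at their bounds, 8 of 10 were negative and the median was -0.41. Cst7 and Clec7a had 0 reads at day 28, so their sign could only be negative, and all Cst7 reads came from day 3 replicate 1. Itgax, also negative, reached the filter only through that library, which held 47 of its reads. The count of signs and the median therefore rest in part on the filter and on day 3 replicate 1. Without day 3 replicate 1 the median of the 8 tested genes was 0.14.

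**Figure D4:**
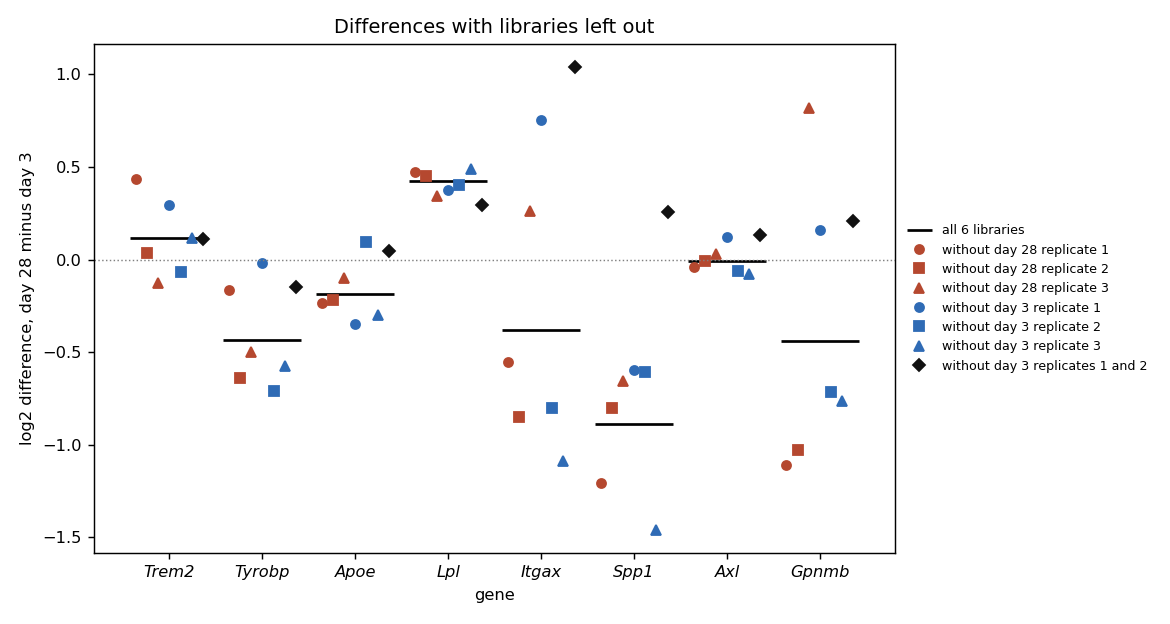
Log2 difference of day 28 minus day 3 of each tested member with all 6 libraries (black lines), with 1 library left out (red for day 28, blue for day 3) and with day 3 replicates 1 and 2 left out (black diamonds). Lpl stayed between 0.30 and 0.49, and Trem2, Apoe, Itgax, Spp1, Axl and Gpnmb had points on both sides of 0.

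Other genes of the disease-associated state, 24 that are raised with the 10 in mouse models, gave 21 tested genes and 0 that passed in either direction. Of the 21, 20 had a negative difference, with a median of -0.34 (-0.33 without day 3 replicate 1), and 8 had groups that did not overlap, all lower at day 28 (9.21% of all tested genes lay lower in this way). Oligodendrocyte markers had the same sign, with 8 of 8 negative differences, a median of -0.49 and 7 of 8 without overlap, and 0 of them passed. The part of oligodendrocyte RNA, or of RNA integrity as read from the long transcripts, in these differences was not tested. The lysosomal proteases Ctsb and Ctsd had the smallest p, with 5094 ± 113 and 1378 ± 92.6 normalized counts at day 28, against 6399 ± 302 and 1747 ± 13.3 at day 3 (limma adjusted p = 0.136 and 0.149). Both are made by many brain cells. Of the 7 genes listed as protease targets of cystatin F or as the MITF family, 6 were tested and 0 passed. Lgmn, which encodes the protease legumain and not a cathepsin, came nearest (log2 difference -0.45, limma adjusted p = 0.117). Of the 7 integrin and osteopontin partners, 0 passed. Across all 21 lists, 188 of 215 genes were tested, 0 passed in the higher and 2 in the lower direction. Those 2 were Aldoc, an astrocyte enzyme of glycolysis, and Dcn, a fibroblast proteoglycan, and neither is a microglia gene.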

How the data were processed

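Polyadenylated RNA of 6 mouse brain libraries was sequenced from stranded libraries, per the labels' protocols. The deposited table held log2 values per gene. Back-transformed, 100% of values were a whole number of reads times a library-specific constant (tolerance 0.001 reads), so the authors' values are log2(count / size factor + 1), with recovered size factors from 0.822 to 1.12. The build was GRCm39 per the submitters' processing notes, and the aligner, counting tool, annotation and strand setting are not given in the sources used here. Symbols came from GENCODE M21 and matched 52073 of 56748 identifiers. Spp1 was the only one of the 10 genes with an overlapping gene in that release, Gm42793, on the same strand and with 0 to 4 reads per library.

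The 16162 genes averaging 10 or more normalized counts were tested with limma 3.58.1 in R 4.3.3, with group as the only term, an intensity trend, two-sided tests, and Benjamini-Hochberg adjustment over all of them. The procedure was tested on simulated data. The members and lists were chosen with earlier results of these data known. Named genes were the 10 members, fixed partners, up to 2 genes of smallest p per list, and the 3 genes of mean normalized count of at least 100 nearest to a tested member, which for Lpl are not reported here. Other markers of border macrophages, monocytes, neutrophils and astrocytes, and Cd74, Alb and Tmem119, were named after their values were seen. Floors on reads cover counting error at day 28 only, with the day 3 reads taken as exact, and the limma intervals rest on the scatter among libraries. The fold bounds without single day 3 libraries were added after seeing the data. Figures used matplotlib 3.10.9.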

Additional observations from a re-analysis of the deposited data

How the results depend on the processing

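No member passed the threshold under any of the 20 alternatives, and 0 passed at an adjusted p of 0.1 in the fit as reported. Without day 3 replicate 3, the limma adjusted p was 0.0542 for Spp1 and 0.0728 for Lpl, both under 0.1. The number of all genes that passed, 31 as reported, was 68 with no filter on low values, 48 with equal upper quartiles, 3 with no variance trend, 74 with a robust variance prior, 69 with array weights, 2 with the cerebellar covariate and 152 at an adjusted p of 0.1. It was 0 with voom (2113 at an unadjusted p under 0.05) and 0 with limma without day 3 replicates 1 and 2 (1904 unadjusted), where the lone day 3 library is assumed to vary like the others. With the replicate number as a block it was 0 (2386 unadjusted), and 0 members passed. Whether the numbers pair the libraries is not settled. The deviations of same-numbered libraries correlated at 0.03, 0.13 and -0.06 over genes. Day 28 replicates 1 and 2 correlated best with their own number, and day 28 replicate 3 with day 3 replicate 1 (0.16). So few libraries cannot exclude a pairing. Leaving out 1 library gave counts from 1 to 623.

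Of 150 member differences recomputed, 133 kept their direction and 17 reversed. The settings for the filter, the variance trend, the robust prior and the replicate block left each difference itself unchanged. Their direction was fixed in advance, so the 133 overstates how stable the directions were. Without day 3 replicates 1 and 2 the differences were 0.049 for Apoe, 1.04 for Itgax, 0.26 for Spp1, 0.135 for Axl and 0.21 for Gpnmb. Axl also reversed with equal upper quartiles (0.035), array weights (0.035) and the cerebellar covariate (0.054). With 1 library left out, the range was -0.13 to 0.44 for Trem2, -0.35 to 0.10 for Apoe, -1.09 to 0.75 for Itgax, -0.076 to 0.123 for Axl and -1.11 to 0.82 for Gpnmb. The cause was not tested. Itgax and Gpnmb lay under a filter of 50 and gave no value there. Depth limits Cst7, Clec7a and Itgax, which rest on 0 to 47 reads per library.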
